A study of Mus musculus with 9 samples.

Results

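The enzymes described here are the glycosyltransferases that build the sugar chains of mucins, cell-surface proteins and glycolipids, taken by gene symbol from 12 name families: Galnt, Gcnt, Mgat, B3gnt, B3galt, B4galt, B4galnt, Fut, St3gal, St6gal, St6galnac and St8sia. Every probe set of the array annotated to a single symbol of these families was a member, whatever its level, and the rule also took the pseudogene Fut4-ps1. It gave 178 probe sets for 85 genes, out of 45037 probe sets that are not array controls, and 124 of these probe sets for 69 genes passed the filter on dim signal. RNA was measured on 9 Affymetrix Mouse Genome 430_2.0 arrays, 1 per mouse, each holding short oligonucleotide probes for most mouse transcripts. Adult male mice aged 6 to 8 weeks gave 3 groups of 3. Control jejunum and control ileum came from different Gata4loxP/+VilCre mice, which keep a wild-type copy of Gata4 beside the floxed one, and mutant jejunum came from Gata4loxP/-VilCre mice, which carry a null copy beside the floxed one. All mice thus carried the villin-Cre transgene, whose promoter drives recombination in the intestinal epithelium, and none of the 3 groups is a mouse with both Gata4 copies intact. The jejunum was taken 10 cm from the pyloric sphincter and the ileum 1 cm from the cecum, and no mutant ileum was analysed here. The design asks which transcripts depend on Gata4, a transcription factor of the proximal small intestine, and how the mutant jejunum stands beside the ileum.

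Glycan chains are built in the Golgi, one sugar at a time, by enzymes that each make a particular linkage. Galnt enzymes start mucin-type O-glycans by putting GalNAc on serine or threonine, Gcnt enzymes open GlcNAc branches on them, and Mgat enzymes open the branches of N-glycans. B3gnt, B3galt and B4galt enzymes lengthen the chains with GlcNAc and galactose, and B4galnt, Fut, St3gal, St6gal, St6galnac and St8sia enzymes finish them with GalNAc, fucose or sialic acid. In the small intestine these chains make up much of the mass of mucins and are part of the coat of the brush border. They serve as binding sites for microbes.

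The arrays differed in brightness. With 2% of values trimmed from either end, an array's mean intensity was 147 to 180 on the jejunum arrays and 96.8 to 122 on the ileum arrays, so that brightness and gut segment cannot be told apart, and all levels below are quantile-normalized log2(intensity + 16). Gata4 itself was read by 2 probe sets, and the brighter stood at 9.49 to 9.57 in control jejunum, 9.38 to 9.61 in mutant jejunum and 5.20 to 5.64 in ileum. Where these probes lie relative to the deleted part of the gene was not settled here, so their level does not check the genotype labels. The 5 enterocyte markers that were tested had a mean level of 12.55 to 13.10 over all arrays, high on a scale whose floor is near 4. Mutant jejunum 3 stood apart from the other arrays on the second principal component. RNA came from pieces of gut and not from sorted cells, so in every result fewer cells of a type and less RNA per cell cannot be told apart.

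The member with the largest difference in both comparisons against control jejunum was Mgat4c, of the GnT-IV branching family, and the other member that rose in both was Galnt3. Their promoters are shown because the factor deleted in the mutant binds GATA motifs. The windows run from 250 bases before to 50 after a transcript start in RefSeq (GRCm38.p6), are written 5′ to 3′ on the gene's own strand, and have in capitals each match on either strand to the GATA motif, searched as AGATAA and as TGATAA and as AGATAG and as TGATAG. Mgat4c has 4 windows in RefSeq, of which 3 hold a match and are printed. The first Mgat4c window is at chr10:101681237-101681536, plus strand, with AGATAA 152 bases before the start. The second is at chr10:102158829-102159128, plus strand, with the reverse complement of AGATAA 118 bases before the start. The last is at chr10:102374187-102374486, plus strand, with matches 230 and 150 bases before the start. The Galnt3 window is at chr2:66124744-66125043, minus strand, and these letters are not in it.
Mgat4c, first window: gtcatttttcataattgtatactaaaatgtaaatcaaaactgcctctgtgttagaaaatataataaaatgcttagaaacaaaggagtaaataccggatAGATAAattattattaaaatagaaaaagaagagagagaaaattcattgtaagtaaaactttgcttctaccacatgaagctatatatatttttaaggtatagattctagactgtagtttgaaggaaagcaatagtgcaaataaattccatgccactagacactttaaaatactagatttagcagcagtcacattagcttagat
Mgat4c, second window: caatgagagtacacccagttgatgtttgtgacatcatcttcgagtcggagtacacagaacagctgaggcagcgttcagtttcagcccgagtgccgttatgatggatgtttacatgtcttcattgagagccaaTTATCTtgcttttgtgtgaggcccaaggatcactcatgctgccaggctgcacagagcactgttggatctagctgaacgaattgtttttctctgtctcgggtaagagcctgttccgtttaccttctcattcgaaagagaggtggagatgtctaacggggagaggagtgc
Mgat4c, last window: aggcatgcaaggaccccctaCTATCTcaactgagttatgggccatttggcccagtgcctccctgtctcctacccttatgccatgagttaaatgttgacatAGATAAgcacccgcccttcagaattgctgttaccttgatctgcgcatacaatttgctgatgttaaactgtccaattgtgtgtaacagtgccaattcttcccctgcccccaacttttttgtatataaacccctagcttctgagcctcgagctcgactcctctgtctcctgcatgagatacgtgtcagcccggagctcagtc
Galnt3: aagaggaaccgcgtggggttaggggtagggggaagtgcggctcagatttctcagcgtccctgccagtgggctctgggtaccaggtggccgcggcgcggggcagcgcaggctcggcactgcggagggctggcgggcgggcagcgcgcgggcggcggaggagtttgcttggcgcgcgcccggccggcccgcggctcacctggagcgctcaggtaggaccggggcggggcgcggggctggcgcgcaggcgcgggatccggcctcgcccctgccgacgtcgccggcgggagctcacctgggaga
Of the 85 member genes, 62 have a window in the table, and 18 of these (29.0%) held at least 1 match in any of their windows, beside 33.0% of all 27025 genes in the table. By window, 23 of 87 member windows (26.4%) held a match, beside 29.8% of all 32851 windows. A match describes the letters of the window and not a bound site. RefSeq places Mgat4c at chromosome 10, 101681487 to 102391851, and Galnt3 at chromosome 2, 66082766 to 66125056.

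Few of these enzymes were called between mutant and control jejunum, and calls were few among all genes as well. Mgat4c and Galnt3 rose, which makes 2 of the 69 tested genes (2.90%) beside 2.10% of all 13830 genes tested, and none fell, beside 2.29% of all genes. At an unadjusted p under 0.05, limma gave 12 members higher (17.4%, beside 8.83% of all genes) and 5 lower (7.25%, beside 9.46%). The median difference of the 69 members was 0.07 and that of all genes 0.00. The 3 mutant arrays lay beyond the 3 control jejunum arrays for 18 members (26.1%), beside 25.0% of all genes.

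The regional comparison gave more calls. Between control ileum and control jejunum, 14 members were higher in ileum (20.3%, beside 8.79% of all genes) and 8 were lower (11.6%, beside 9.12%), and the groups did not overlap for 33 members (47.8%, beside 40.1%). The median difference was -0.01 for the members and 0.03 for all genes. With no scaling between arrays, the split became 6 higher and 26 lower. That setting moved the median of all probe sets by -0.40 and called 619 higher and 10013 lower of 29621 probe sets. Between mutant jejunum and control ileum, 3 members were higher in the mutant (4.35%, beside 1.97%) and 4 were lower (5.80%, beside 1.70%). With no scaling 23 were higher and 1 lower, beside 8349 and 148 of 29621 probe sets, with a shift of all probe sets of 0.41. The mutant is compared with control jejunum and with ileum, and these comparisons share arrays, so each one's values are set side by side below and no likeness between them is tested.

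Markers of several cell types were called between the gut segments as well. Among all genes, 8.79% were called higher and 9.12% lower in ileum against control jejunum. The shares were 2.10% and 2.29% in mutant against control jejunum, and 1.97% and 1.70% in mutant jejunum against ileum. Smooth muscle markers rose in ileum against control jejunum for 6 of 7, with a mean level of 9.64 to 10.28 in control jejunum, 9.40 to 10.10 in mutant jejunum and 10.73 to 11.18 in ileum. T cell markers fell for 3 of 7, with mean levels of 8.11 to 8.73, 8.55 to 8.95 and 6.78 to 7.97 in the same order, and B and plasma cell markers fell for 3 of 7 (7.35 to 7.83, 7.30 to 7.59 and 6.52 to 7.34). Goblet cell markers rose for 3 of 7 and fell for 1 (11.85 to 11.88, 11.98 to 12.13 and 12.16 to 12.29), and Paneth cell markers rose for 3 of 5 (10.87 to 12.19, 10.78 to 12.16 and 12.16 to 13.04). Between mutant and control jejunum, the calls in these 5 lists came to 1 of 7 goblet cell markers, Spdef, which was higher, and 3 of 6 enteroendocrine markers fell (mean levels 8.80 to 8.90 in control and 7.71 to 8.06 in mutant jejunum). In ileum against control jejunum, 2 of 5 enterocyte markers fell, 3 of 6 enteroendocrine markers fell and 1 rose, 1 of 6 myeloid markers fell, and 2 of 6 markers of enteric neurons and glia rose. In mutant jejunum against ileum, 6 of 7 smooth muscle, 3 of 5 Paneth and 3 of 6 neuron and glia markers were lower, 3 of 7 T cell markers were higher, and 1 goblet cell marker was lower. In that comparison 1 enterocyte and 1 enteroendocrine marker were higher and 1 of each lower. The part of these cells in the results was not tested.

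**Figure D1:**
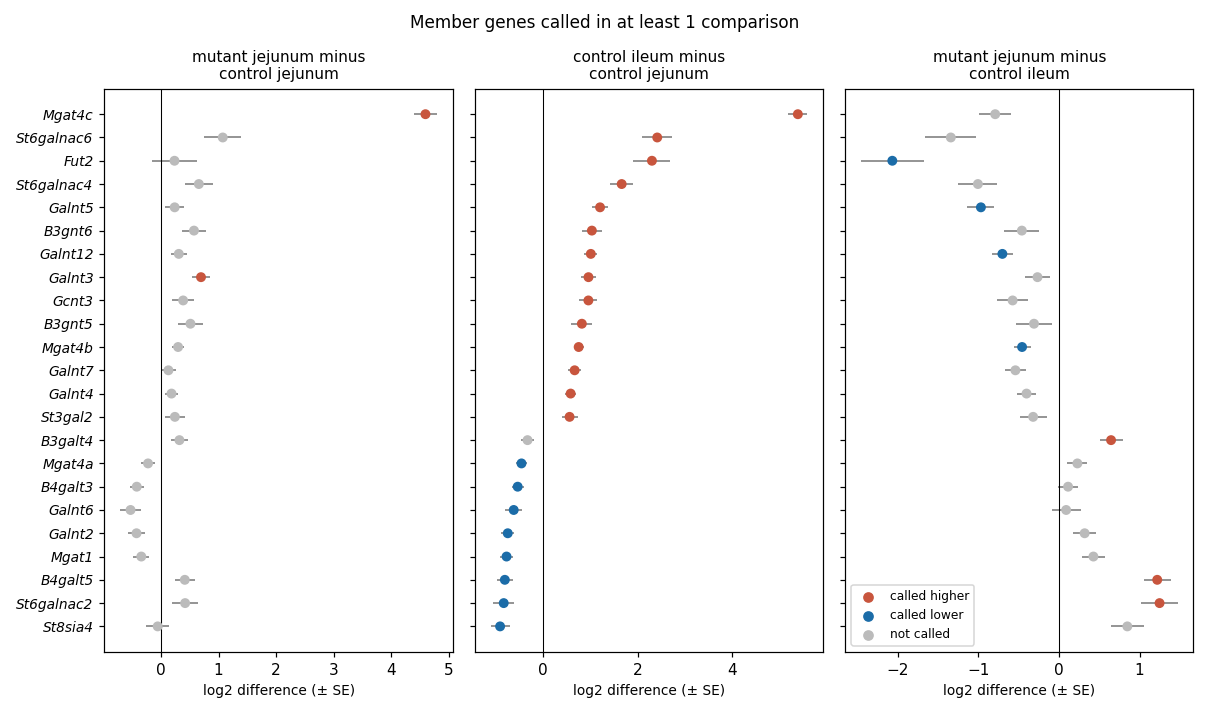
Each point is the log2 difference of 1 member gene with its standard error, for the 23 members called in at least 1 of the 3 comparisons; red is called higher, blue called lower and grey not called, and the 3 panels have their own x axes. Mgat4c stands apart at 4.59 and 5.39 in the first 2 panels, and the second panel holds most of the calls.

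Mgat4c was the member with the largest difference. The family is named for the GnT-IV enzymes, which add a GlcNAc branch to the core of N-glycans. Mgat4c read 6.07, 5.51 and 5.44 in control jejunum, 10.11, 10.62 and 10.08 in mutant jejunum and 10.86, 11.09 and 11.23 in ileum. The mutant arrays lay far above all control jejunum arrays and below all ileum arrays, and no groups overlapped. The mutant exceeded control jejunum by 4.59 (SE 0.20, adjusted p = 6.63e-07), a 24.2-fold difference, and ileum exceeded control jejunum by 5.39 (adjusted p = 7.38e-08), a 41.8-fold difference. Both calls were kept in 20 of 20 alternative settings, and the folds were 12.9 and 21.9 with a pseudocount of 64 and 34.3 and 59.7 with a pseudocount of 1. The mutant differed from ileum by -0.79, which missed the threshold (adjusted p = 0.0653). It passed with a pseudocount of 64 (-0.77, adjusted p = 0.0345) and without control jejunum 1 (adjusted p = 0.0437). Mgat4c is read by a single probe set.

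Of the 10 Mgat genes 7 were tested, and none besides Mgat4c was called between mutant and control jejunum (14.3%, beside 2.10% of all genes). In ileum 2 rose (28.6%, beside 8.79%) and 2 fell (28.6%, beside 9.12%). Between mutant and ileum, 1 was lower in the mutant (14.3%, beside 1.70%). Mgat4b, a GnT-IV enzyme that acts in many tissues, read 9.26, 9.37 and 9.33 in control jejunum, 9.62, 9.64 and 9.60 in mutant jejunum and 9.94, 10.15 and 10.14 in ileum. The 3 groups formed separate steps. Ileum was higher than control jejunum by 0.75 (adjusted p = 0.000807), the mutant differed from control jejunum by 0.30 (adjusted p = 0.174), and the mutant was lower than ileum by -0.46 (adjusted p = 0.0459). That last call was kept in 4 of 20 alternatives, was lost without any 1 of the 9 arrays (adjusted p = 0.0533 to 0.169), and its value turned to 0.15 with no scaling between arrays.

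Mgat1 and Mgat4a fell in ileum. Mgat1, which adds the first GlcNAc and so commits an N-glycan to the hybrid and complex forms, read 9.53, 9.59 and 9.61 in control jejunum, 9.40, 9.36 and 8.94 in mutant jejunum and 8.74, 8.72 and 8.97 in ileum. All ileum arrays lay below all control jejunum arrays, and the fall was -0.77 (adjusted p = 0.00426, kept in 20 of 20 alternatives). The mutant differed from control jejunum by -0.34 (adjusted p = 0.249). Mgat4a, the GnT-IV enzyme prominent in gut and pancreas, read 11.29 to 11.68 in control jejunum, 11.15 to 11.34 in the mutant and 10.82 to 11.09 in ileum, and fell in ileum by -0.45 (adjusted p = 0.0311). The Mgat4a call was lost without control ileum 1 or 2 or control jejunum 1 or 2 (adjusted p = 0.0514 to 0.120), and its dimmer probe set was not called (0.13). Mgat2, which opens the second arm, differed by -0.24 in ileum (adjusted p = 0.240), Mgat3, which adds the bisecting GlcNAc, by -0.06 (adjusted p = 0.859), and Mgat5, which adds a further branch, by -0.12 (adjusted p = 0.570).

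**Figure D2:**
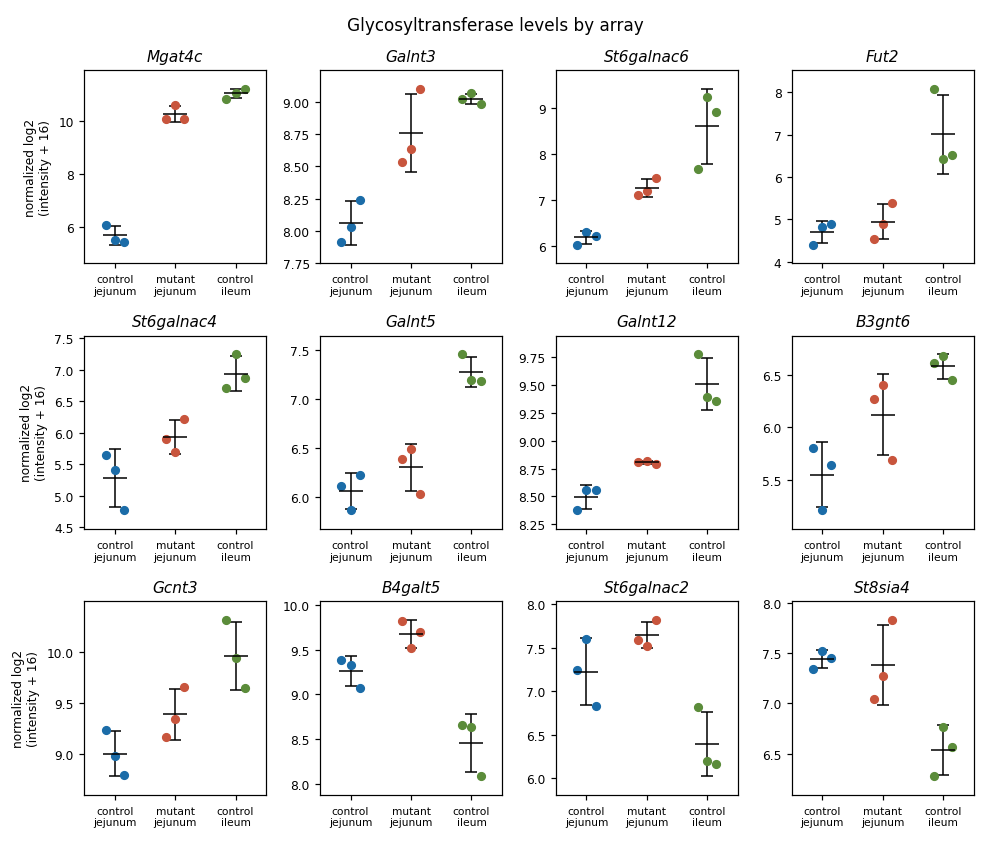
Points are the normalized log2(intensity + 16) of 12 member genes on each of the 9 arrays, with 3 mice per group; the long bar is the group mean and the whiskers are 1 SD, and each panel has its own y axis, which does not start at 0. Mgat4c reads 5.44 to 6.07 in control jejunum and at least 10.08 elsewhere, and Fut2 reads 4.41 to 5.38 in both jejunum groups and at least 6.41 in ileum.

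Of the 18 Galnt genes, whose enzymes start mucin-type O-glycans, 13 were tested. In ileum 5 rose (38.5%, beside 8.79% of all genes) and 2 fell (15.4%, beside 9.12%). Galnt3 read 7.91, 8.03 and 8.24 in control jejunum, 8.53, 8.64 and 9.10 in mutant jejunum and 9.02, 9.07 and 8.99 in ileum. The mutant arrays lay above every control jejunum array and their range reached over that of the ileum arrays. Galnt3 rose by 0.70 in the mutant (SE 0.16, adjusted p = 0.0394), a 1.62-fold difference, and by 0.96 in ileum (adjusted p = 0.00234). The mutant call was kept in 8 of 20 alternatives: it was lost when the fit held just those 2 groups (adjusted p = 0.0840) and on leaving out any 1 array other than mutant jejunum 1 (adjusted p = 0.0526 to 0.137). Its dimmer probe set gave 0.67 (adjusted p = 0.0750) in the mutant and 0.66 (adjusted p = 0.0333) in ileum.

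Galnt5 and Galnt12, 2 other starters of O-glycans, rose in ileum and stood lower in the mutant than in ileum. Galnt5 read 6.12, 5.87 and 6.22 in control jejunum, 6.39, 6.49 and 6.04 in mutant jejunum and 7.45, 7.19 and 7.18 in ileum. The jejunum groups overlapped each other and lay below all ileum arrays. Ileum exceeded control jejunum by 1.21 (adjusted p = 0.000781), and the mutant differed from ileum by -0.97 (adjusted p = 0.0154), a call lost without control ileum 1 or 2 or mutant jejunum 1 (adjusted p = 0.0507 to 0.0559). It was also lost with no scaling between arrays (-0.53, adjusted p = 0.0503). Galnt12 read 8.37, 8.55 and 8.56 in control jejunum, 8.81, 8.82 and 8.79 in mutant jejunum and 9.77, 9.39 and 9.36 in ileum. The mutant arrays formed a narrow step between the control groups, 0.31 above control jejunum (adjusted p = 0.275). Galnt12 rose by 1.01 in ileum (adjusted p = 0.000625), and the mutant was lower than ileum by -0.70 (adjusted p = 0.0234). That difference was -0.12 with no scaling between arrays, and the call was also lost when each array was centred on its median (adjusted p = 0.117) and without control ileum 1 or 2 or mutant jejunum 1 or 2 (adjusted p = 0.0598 to 0.0795).

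Galnt4 and Galnt7 are follow-up enzymes that prefer peptides already carrying GalNAc. Galnt4 read 9.48 to 9.67 in control jejunum, 9.61 to 9.91 in the mutant and 10.04 to 10.26 in ileum, and rose in ileum by 0.59 (adjusted p = 0.00732). Its dimmer probe set rose in the mutant by 0.48 (adjusted p = 0.0462), where the brighter gave 0.18 (adjusted p = 0.483). Galnt7 read 9.41 to 9.63 in control jejunum, 9.57 to 9.72 in the mutant and 10.02 to 10.47 in ileum, and rose in ileum by 0.67 (adjusted p = 0.00713, and 0.0646 when each array was centred on its median). Of its other 2 tested probe sets, 1 rose (0.70, adjusted p = 0.0313) and 1 was not called (0.29, adjusted p = 0.198).

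Galnt2 and Galnt6, also starters of O-glycans, were the 2 family members that fell in ileum. Galnt2 read 8.39, 8.71 and 8.45 in control jejunum, 8.13, 7.89 and 8.26 in mutant jejunum and 7.75, 7.77 and 7.79 in ileum. Every ileum array lay below every jejunum array, the fall was -0.74 (adjusted p = 0.00478), and both other tested probe sets were called as well (-0.83 and -0.72). The mutant differed from control jejunum by -0.43 (adjusted p = 0.140). Galnt6 read 10.29 to 10.45 in control jejunum, 9.35 to 10.16 in the mutant and 9.68 to 9.80 in ileum, and fell in ileum by -0.62 (adjusted p = 0.0394). The Galnt6 call was lost without any 1 of the 6 control arrays (adjusted p = 0.0741 to 0.119), and its 3 probe sets were not called alike. The dimmest fell in the mutant by -0.80 (adjusted p = 0.0282) and gave -0.05 in ileum. In mutant against ileum, 1 of the 3 was called lower in the mutant, where the brightest gave 0.09 (adjusted p = 0.858).

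Among the 4 Gcnt genes, 1 was called, higher in ileum (25.0%, beside 8.79% of all genes). This was Gcnt3, the mucin-type enzyme that opens branches on O-glycans of secretory cells. It read 9.24, 8.98 and 8.80 in control jejunum, 9.17, 9.35 and 9.66 in mutant jejunum and 10.31, 9.94 and 9.65 in ileum. Ileum lay above control jejunum on every array, by 0.96 (adjusted p = 0.00644), and the mutant arrays overlapped both. Its mutant difference was 0.38 (adjusted p = 0.340). Of its other 2 tested probe sets, 1 rose in ileum (0.90, adjusted p = 0.0104) and 1 missed the threshold (0.89, adjusted p = 0.0698). Gcnt2, which makes the branched I antigen, was tested by 6 of its 8 probe sets, of which 1 was called, lower in ileum by -1.08 (adjusted p = 0.0416), while the brightest gave -0.17.

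Core extension enzymes of the B3gnt family rose in ileum for 2 of 7 tested genes (28.6%, beside 8.79% of all genes). None was called in the mutant. B3gnt6, the core 3 synthase that competes for the first GalNAc of mucins, read 5.80, 5.20 and 5.64 in control jejunum, 6.27, 6.41 and 5.68 in mutant jejunum and 6.61, 6.68 and 6.45 in ileum. All ileum arrays lay above all jejunum arrays, by 1.03 over control jejunum (adjusted p = 0.00838), and the mutant gave 0.57 (adjusted p = 0.203). B3gnt5, which starts the lacto-series glycolipids, read 5.39 to 5.58 in control jejunum, 5.59 to 6.39 in the mutant and 6.07 to 6.69 in ileum, and rose in ileum by 0.82 (adjusted p = 0.0285). The B3gnt5 call was lost without control ileum 1 or 3 or any 1 of the control jejunum arrays (adjusted p = 0.0511 to 0.0977). B3gnt7, a keratan sulfate enzyme, gave 0.55 in ileum (adjusted p = 0.248).

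Among the galactosyltransferases, B4galt5 and B3galt4 were higher in the mutant than in ileum. That is 1 of 7 tested B4galt genes (14.3%) and 1 of 3 tested B3galt genes (33.3%), beside 1.97% of all genes. In ileum against control jejunum, 2 B4galt genes fell (28.6%, beside 9.12%). B4galt5, which makes lactosylceramide, the base of most glycolipids, read 9.38, 9.33 and 9.08 in control jejunum, 9.82, 9.52 and 9.69 in mutant jejunum and 8.66, 8.63 and 8.08 in ileum. The mutant arrays were the highest and the ileum arrays the lowest, with no overlap between any 2 groups. B4galt5 fell in ileum by -0.81 against control jejunum (adjusted p = 0.00877), and the mutant exceeded ileum by 1.22 (adjusted p = 0.00516), a 2.33-fold difference kept in 20 of 20 alternatives. The mutant differed from control jejunum by 0.41 (adjusted p = 0.244). Its dimmer probe set was not called in either of the called comparisons. B3galt4, which builds the ganglioside GM1, read 6.72 to 6.94 in control jejunum, 7.09 to 7.14 in the mutant and 6.24 to 6.60 in ileum. The mutant exceeded ileum by 0.65 (adjusted p = 0.0405), a call kept in 8 of 20 alternatives and lost on leaving out any 1 array other than mutant jejunum 3 (adjusted p = 0.0512 to 0.124).

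B4galt3 fell in ileum by -0.53 (adjusted p = 0.0153), with 8.51 to 8.66 in control jejunum and 7.88 to 8.21 in ileum, a call lost without control ileum 1 (adjusted p = 0.0553) or control jejunum 3 (adjusted p = 0.0636). Its mutant arrays, 8.13 to 8.19, lay below control jejunum by -0.42 (adjusted p = 0.103). B4galt1, the main galactosyltransferase of N-glycan arms, read 8.70 to 8.84 in control jejunum, 9.11 to 9.23 in the mutant and 9.08 to 9.11 in ileum. Its groups did not overlap against control jejunum in either comparison, and neither difference passed the threshold (0.37, adjusted p = 0.0901, and 0.30, adjusted p = 0.0783). With array weights in the fit, 5 members were called higher in the mutant (Mgat4c, Galnt3, B3gnt6, B4galt1 and B4galt4) and 2 lower (B4galt3 and Galnt2), which is 7.25% and 2.90% of members beside 3.83% and 4.01% of all genes under that setting. B4galnt2, which makes the Sda antigen of the gut, gave 0.33 in ileum (adjusted p = 0.114) and -0.20 in the mutant (adjusted p = 0.491) by its brightest probe set, and 1 of its 3 tested probe sets rose in ileum by 1.09 (adjusted p = 0.00389). B4galnt1, the synthase of the ganglioside GM2, gave -0.07 in ileum (adjusted p = 0.723) and -0.12 in the mutant (adjusted p = 0.666).

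Of 9 Fut genes 7 were tested, and Fut2 was the one called. The share higher in ileum was 14.3%, beside 8.79% of all genes, and that lower in mutant against ileum 14.3%, beside 1.70%. Fut2 adds the terminal fucose of the H antigen in secretory epithelia and so sets the fucose that gut bacteria meet. Fut2 read 4.41, 4.82 and 4.90 in control jejunum, 4.55, 4.90 and 5.38 in mutant jejunum and 8.09, 6.41 and 6.53 in ileum. The jejunum groups overlapped near the floor of the array, and all ileum arrays lay above them, with control ileum 1 the highest. Every control jejunum array and mutant jejunum 1 and 2 lay below the filter level of 4.95, so Fut2 passed the filter mainly through ileum and the size of its differences depends on the pseudocount. Ileum exceeded control jejunum by 2.30 (adjusted p = 0.00263), the mutant differed from control jejunum by 0.23 (adjusted p = 0.824), and the mutant was lower than ileum by -2.07 (adjusted p = 0.0226). With a pseudocount of 64 the ileum difference was 1.29 and that of the mutant from ileum -1.20, and with a pseudocount of 1 they were 3.40 and -2.91. The mutant against ileum call was lost when the fit held just those 2 groups (adjusted p = 0.0583) and without mutant jejunum 1 (adjusted p = 0.0843) or 2 (adjusted p = 0.0615). The second probe set of Fut2 gave 1.93 (adjusted p = 0.000514), 0.76 (adjusted p = 0.144) and -1.18 (adjusted p = 0.0343) for the same 3 comparisons. Fut2 lies at chromosome 7, 45648591 to 45666394, 27.5 kb from Fut1, the other H antigen enzyme, which did not pass the filter. Fut4, which makes Lewis x, gave 0.01 in ileum (adjusted p = 0.967), with its dimmer probe set at 0.63 (adjusted p = 0.0387), and Fut8, which adds the core fucose of N-glycans, gave -0.17 (adjusted p = 0.455).

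The St6galnac enzymes put sialic acid on GalNAc, and 6 of 6 were tested. In ileum 2 rose (33.3%, beside 8.79% of all genes) and 1 fell (16.7%, beside 9.12%). Against ileum, 1 was higher in the mutant (16.7%, beside 1.97%). Between mutant and control jejunum none was called, with a median of 0.39 and a range of 0.10 to 1.07, beside 0.00 for all genes. St6galnac6, which acts on gangliosides, read 6.03, 6.31 and 6.22 in control jejunum, 7.11, 7.20 and 7.48 in mutant jejunum and 7.68, 9.23 and 8.90 in ileum. The 3 groups did not overlap, with the mutant between the controls. Ileum exceeded control jejunum by 2.41 (adjusted p = 0.000583), a 5.33-fold difference. The mutant difference of 1.07 missed the threshold (adjusted p = 0.10) and passed it when the fit held just those 2 groups (adjusted p = 0.0108) and without control ileum 1 (adjusted p = 0.00573). The mutant stood -1.34 from ileum (adjusted p = 0.0515), and this passed the threshold without control ileum 1 (-1.81, adjusted p = 0.00130), with array weights (adjusted p = 0.0122), with the filter at the 60th percentile (adjusted p = 0.0470) and with the replicate block (adjusted p = 0.0333).

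St6galnac4, which acts on sialylated O-glycans, read 5.65, 5.41 and 4.77 in control jejunum, 5.89, 5.69 and 6.22 in mutant jejunum and 6.71, 7.24 and 6.87 in ileum. It rose in ileum by 1.66 (adjusted p = 0.00108), a 3.17-fold difference that was 1.96-fold with a pseudocount of 64, and the mutant gave 0.66 (adjusted p = 0.194). Its other probe set rose in ileum by 0.60 (adjusted p = 0.0368). In RefSeq, St6galnac4 (32587078 to 32599696) and St6galnac6 (32599709 to 32620809) lie side by side on chromosome 2 with 12 bases between them. St6galnac2, which sialylates core O-glycans, went the other way: it read 7.25, 7.60 and 6.83 in control jejunum, 7.59, 7.52 and 7.81 in mutant jejunum and 6.82, 6.20 and 6.16 in ileum. Every ileum array lay below every jejunum array. St6galnac2 fell in ileum by -0.83 (adjusted p = 0.0292), and the mutant exceeded ileum by 1.25 (adjusted p = 0.0177). The first call was lost without control ileum 2 or 3 or control jejunum 1 or 2 (adjusted p = 0.0695 to 0.112), and the second without control ileum 2 or 3 or mutant jejunum 1 (adjusted p = 0.0552 to 0.0817). St6galnac1, which makes the sialyl-Tn antigen of goblet cell mucus, gave 0.37 in the mutant (adjusted p = 0.326) and 0.41 in ileum (adjusted p = 0.137).

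St8sia4, which makes polysialic acid, read 7.35, 7.52 and 7.45 in control jejunum, 7.05, 7.28 and 7.83 in mutant jejunum and 6.27, 6.76 and 6.57 in ileum. The jejunum groups overlapped and all ileum arrays lay below them. St8sia4 fell in ileum by -0.91 (adjusted p = 0.0120, kept in 20 of 20 alternatives), and the mutant differed by -0.06 from control jejunum (adjusted p = 0.929) and by 0.85 from ileum (adjusted p = 0.0537). Its other probe set was not called (0.18 in ileum). The T cell and the B and plasma cell markers given above also fell in ileum for 3 of 7 each, and their part was not tested. St3gal2, which sialylates gangliosides and O-glycans, rose in ileum by 0.56 (adjusted p = 0.0439), a call lost without any 1 of the 6 control arrays or mutant jejunum 1 (adjusted p = 0.0506 to 0.147). Its other 2 tested probe sets were not called in ileum (0.13 and 0.65). St6gal1, the enzyme that caps N-glycan arms, gave -0.33 in the mutant (adjusted p = 0.615) and -0.55 in ileum (adjusted p = 0.216).

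Some members varied more between mice of a group than between groups. St3gal4, which adds the sialic acid of sialyl Lewis x, read 7.36, 11.75 and 11.70 in control jejunum, 11.89, 7.78 and 11.19 in mutant jejunum and 12.15, 6.33 and 5.28 in ileum. It was above 11 on 5 arrays and below 8 on 4, and each group held arrays of both kinds. Its standard deviation within groups, 2.88, was the second highest of 29307 tested probe sets, whose median was 0.22. No difference between groups passed the threshold (0.02 in the mutant, adjusted p = 0.998, and -2.35 in ileum, adjusted p = 0.393). St3gal4 is read by a single probe set and lies at chromosome 9, 35046576 to 35116864.

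The next 4 members by within-group standard deviation had 0.82 to 1.13, ranks 69 to 190 of all tested probe sets. St3gal6, a related enzyme of sialyl Lewis x, read 9.78, 9.84 and 9.45 in control jejunum, 9.59, 9.95 and 8.61 in mutant jejunum and 10.08, 8.21 and 7.53 in ileum. Control ileum 1 was the highest array and the other ileum arrays were the lowest, and the ileum difference of -1.08 (adjusted p = 0.195) became -1.82 without control ileum 1 (adjusted p = 0.00822). Gcnt1, which opens the core 2 branch, read 5.56, 5.001 and 5.24 in control jejunum, 5.31, 6.08 and 6.56 in mutant jejunum and 5.71, 6.09 and 8.02 in ileum, with 1.34 in ileum (adjusted p = 0.0977) and 1.81 without control ileum 1 (adjusted p = 0.0454). B3galt5, which makes type 1 chains, read 5.67, 5.54 and 5.34, then 5.37, 5.72 and 6.28, then 5.26, 4.95 and 8.36 in the same order of groups. It was high on control ileum 3 and lower on the other 8 arrays, and no difference was called. B3gnt3, which extends core 1, read 9.45, 7.94 and 8.82, then 9.11, 9.21 and 6.49, then 9.06, 7.46 and 9.04. Low arrays of B3gnt3 stood in each group, and no difference was called.

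**Figure D3:**
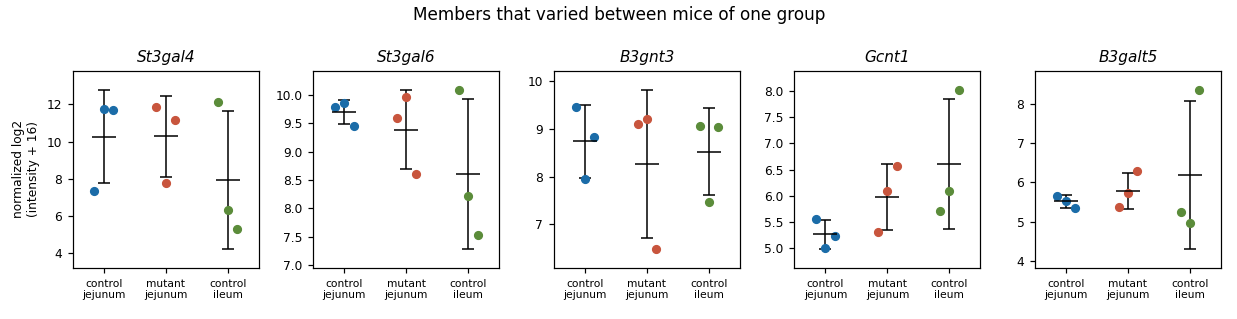
Points are the normalized log2(intensity + 16) of 5 members on each array, with the group mean as the long bar and 1 SD as whiskers over 3 mice; each panel has its own y axis, which does not start at 0. St3gal4 spans 5.28 to 12.15, with high and low arrays in all 3 groups.

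The remaining members gave no calls by their brightest probe set, and a dimmer one of B4galt2, a galactosyltransferase, rose in ileum by 0.82 (adjusted p = 0.0409). In all, 46 of the 69 tested genes were called in no comparison and 23 in at least 1. The share of all genes called in at least 1 was not counted, and the shares for each comparison are given above. The 16 genes that did not pass the filter were B3galt1, B3galt2, B3gnt4, B3gnt8, Fut1, Fut9, Galnt13, Galnt14, Galnt9, Galntl5, Galntl6, Mgat4d, Mgat4e, Mgat5b, St6gal2 and St8sia1, and their 29 probe sets read 4.01 to 5.23 on all arrays, near the floor of the scale. No member had probe sets called in opposite directions in the same comparison. Over all 124 tested member probe sets, 3 rose and 1 fell in the mutant, beside 1.74% and 1.82% of all probe sets, and 23 rose and 11 fell in ileum against control jejunum, beside 8.36% and 7.86%. Between mutant jejunum and ileum, 3 were higher and 6 lower in the mutant, beside 1.39% and 1.27%. Groups did not overlap for 26, 55 and 36 of the 124 in these comparisons, beside 22.5%, 37.4% and 20.6% of all probe sets.

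Genes that make or carry the activated sugars used by these enzymes were taken from lists, each gene by its brightest tested probe set. Of 22 tested genes of nucleotide sugar synthesis, 4 rose in mutant jejunum (Gnpnat1, Gmds, Gfpt1 and Nans; 18.2%, beside 2.10% of all genes) and none fell. In ileum 7 rose (31.8%, beside 8.79%) and 1 fell (4.55%, beside 9.12%). The list medians were 0.14 and 0.27, beside 0.00 and 0.03 for all genes. Gfpt1 makes the first committed step to UDP-GlcNAc and read 10.66, 10.80 and 10.43 in control jejunum, 11.35, 11.33 and 11.85 in mutant jejunum and 11.51, 11.73 and 11.81 in ileum. The mutant arrays overlapped those of ileum and lay above control jejunum by 0.88 (adjusted p = 0.0119, and 0.0615 without control jejunum 3). Gnpnat1, the next enzyme on that path, read 8.40, 8.35 and 8.26, then 9.06, 9.55 and 9.52, then 9.79, 9.99 and 10.13 in the same order of groups. The mutant stood between the controls, 1.04 above control jejunum (adjusted p = 0.00349), and ileum was 1.63 above it (adjusted p = 5.28e-05); the mutant call was kept in 20 of 20 alternatives.

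Gmds makes the precursor of GDP-fucose, the donor for all Fut enzymes, and read 9.60, 9.46 and 9.40 in control jejunum, 10.40, 10.51 and 10.92 in mutant jejunum and 10.75, 11.14 and 11.55 in ileum. It rose by 1.12 in the mutant (adjusted p = 0.0101, and 0.0540 without control jejunum 3) and by 1.67 in ileum (adjusted p = 0.000257). Nans, a sialic acid synthase, read 8.84 to 9.004 in control jejunum, 9.35 to 9.72 in the mutant and 9.68 to 10.01 in ileum. Its rise of 0.58 in the mutant (adjusted p = 0.0421) was kept in 7 of 20 alternatives and lost without control ileum 1 or 2 or any 1 of the 6 jejunum arrays (adjusted p = 0.0554 to 0.161), and it rose in ileum by 0.91 (adjusted p = 0.00120). The ileum call of Nans was lost with no scaling between arrays (0.35, adjusted p = 0.113). Dimmer probe sets of Gmds, Gnpnat1 and Gfpt1 were also called higher in the mutant, not every one for Gnpnat1 and Gfpt1, and that of Nans was not called in the mutant.

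**Figure D4:**
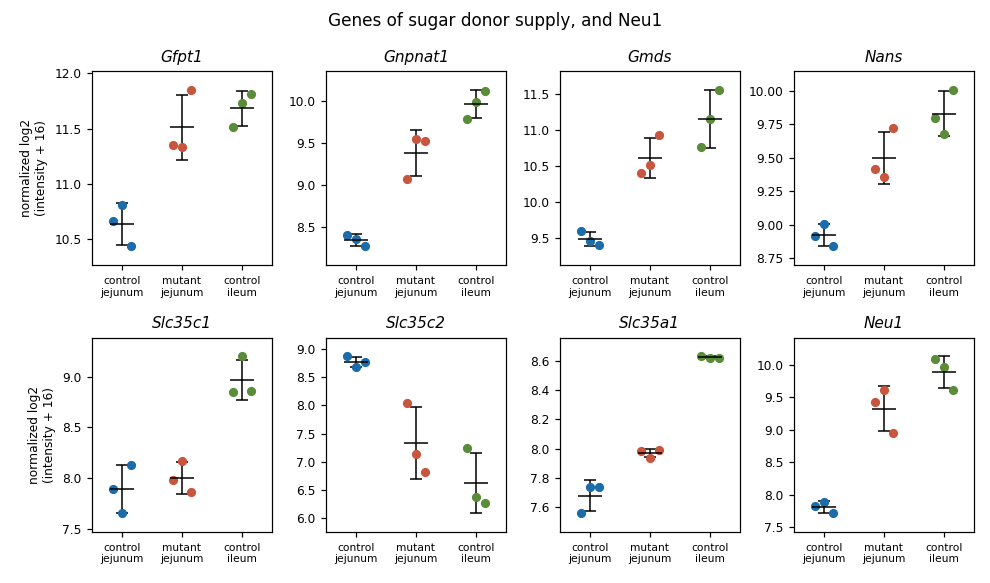
Points are the normalized log2(intensity + 16) of 7 genes that make or carry activated sugars and of the sialidase Neu1 on each array, with the group mean as the long bar and 1 SD as whiskers over 3 mice; each panel has its own y axis, which does not start at 0. Gfpt1, Gnpnat1, Gmds, Nans and Neu1 have every mutant array above every control jejunum array, and Slc35c1 has overlapping jejunum groups below ileum.

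Of 10 Golgi transporters that carry these sugars to the enzymes, 1 fell in the mutant (10%, beside 2.29% of all genes) and none rose by its brightest probe set, and 4 rose (40%, beside 8.79%) and 3 fell (30%, beside 9.12%) in ileum. Slc35c1, the GDP-fucose transporter, read 7.89, 7.65 and 8.13 in control jejunum, 7.98, 8.17 and 7.86 in mutant jejunum and 8.85, 9.20 and 8.86 in ileum. The jejunum groups overlapped below ileum. Slc35c1 rose in ileum by 1.08 (adjusted p = 0.00125), and the mutant was lower than ileum by -0.97 (adjusted p = 0.0138), a call lost without control ileum 2 (adjusted p = 0.0639) or mutant jejunum 1 (adjusted p = 0.0568). It was also lost with each array centred on its median (adjusted p = 0.0673) and with no scaling between arrays (-0.41, adjusted p = 0.168). With no scaling the ileum call of Slc35c1 was lost too (0.56, adjusted p = 0.0682). Slc35a1, the CMP-sialic acid transporter, read 7.56 to 7.74 in control jejunum, 7.94 to 7.99 in the mutant and 8.62 to 8.63 in ileum. It rose in ileum by 0.94 (adjusted p = 0.000337), and the mutant was lower than ileum by -0.65 (adjusted p = 0.0162). That call was lost without control ileum 2 or mutant jejunum 1 or 2 (adjusted p = 0.0544 to 0.0707). It was also lost with each array centred on its median (adjusted p = 0.0970) and with no scaling between arrays (-0.12, adjusted p = 0.593). With no scaling the ileum call of Slc35a1 was lost too (0.44, adjusted p = 0.0590). The second probe set of Slc35a1 rose in the mutant against control jejunum by 0.58 (adjusted p = 0.0260), where the brighter gave 0.29 (adjusted p = 0.225), and it was not called between mutant and ileum (-0.45, adjusted p = 0.0822). Slc35c2, a relative of Slc35c1, read 8.87, 8.67 and 8.76 in control jejunum, 8.04, 7.14 and 6.82 in mutant jejunum and 7.24, 6.37 and 6.26 in ileum. Its fall of -1.43 in the mutant (adjusted p = 0.0312) was lost without any 1 of the control jejunum arrays or mutant jejunum 2 or 3 (adjusted p = 0.0782 to 0.114), and in ileum it fell by -2.14 (adjusted p = 0.00108).

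Neighbouring steps of the path were described in the same way. Of 13 tested genes of mucins and goblet cell secretion, Retnlb, a goblet cell peptide, and Spdef, a goblet cell transcription factor, rose in the mutant (15.4%, beside 2.10% of all genes) and none fell, and 5 rose (38.5%, beside 8.79%) and 1 fell (7.69%, beside 9.12%) in ileum. Retnlb read 4.07 to 4.31 in control jejunum, 7.24 to 7.87 in the mutant and 7.66 to 11.34 in ileum, and its mutant rise of 3.36 (adjusted p = 0.0318) was lost without any 1 of the jejunum arrays (adjusted p = 0.0626 to 0.116) and with no filter (adjusted p = 0.0545). With control jejunum near the floor, the Retnlb difference was 5.99 with a pseudocount of 1 and 1.82, not called, with a pseudocount of 64 (adjusted p = 0.195). Spdef rose by 0.59 (adjusted p = 0.0473), a call kept in 5 of 20 alternatives and lost without control ileum 2 or 3 or any 1 of the 6 jejunum arrays (adjusted p = 0.0515 to 0.168). Muc2, the main secreted mucin and the chief carrier of these chains, gave 0.18 in the mutant (adjusted p = 0.539) and 0.35 in ileum (adjusted p = 0.0974). The ileum difference passed the threshold with trimmed mean scaling (0.50, adjusted p = 0.0171), with array weights (adjusted p = 0.0336) and without control ileum 3 (adjusted p = 0.0294). Agr2, which folds mucins, rose in ileum by 0.97 (adjusted p = 0.000415), and the mutant was lower than ileum by -0.62 (adjusted p = 0.0262). That last call was lost without any 1 of the control ileum arrays or mutant jejunum 1 (adjusted p = 0.0556 to 0.0838). It was also lost with each array centred on its median (adjusted p = 0.187) and with no scaling between arrays (-0.09, adjusted p = 0.719). The second probe set of Agr2 gave -0.72 there (adjusted p = 0.0177).

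C1galt1, the core 1 synthase, read 8.43 to 8.54 in control jejunum, 9.005 to 9.15 in the mutant and 8.91 to 9.44 in ileum. Its brightest probe set gave 0.59 in the mutant (adjusted p = 0.0558), and both dimmer ones rose there (0.71, adjusted p = 0.0151, and 0.95, adjusted p = 0.0216). In ileum C1galt1 rose by 0.63 (adjusted p = 0.0153), a call lost without control jejunum 2 (adjusted p = 0.0543) or 3 (adjusted p = 0.0559). It was also lost with each array centred on its median (adjusted p = 0.0844) and with no scaling between arrays (0.11, adjusted p = 0.687). Among 9 genes of N-glycan trimming, none was called in the mutant and 2 fell in ileum (22.2%, beside 9.12% of all genes). These were the glucosidase subunit Ganab by -0.70 (adjusted p = 0.00267) and the mannosidase Man1a by -0.61 (adjusted p = 0.0147, and 0.0512 or 0.0660 without control jejunum 2 or 3). A dimmer probe set of Ganab was not called (0.00). Of 15 tested genes of other terminal steps, Neu1 was called in the mutant (6.67%, beside 2.10% of all genes). In ileum 4 of them rose (26.7%, beside 8.79%) and 1 fell (6.67%, beside 9.12%). Neu1, the lysosomal sialidase that removes sialic acid, read 7.82, 7.88 and 7.71 in control jejunum, 9.42, 9.61 and 8.94 in mutant jejunum and 10.09, 9.97 and 9.62 in ileum. The 3 groups did not overlap, and Neu1 rose by 1.52 in the mutant (adjusted p = 0.000975, kept in 20 of 20 alternatives) and by 2.08 in ileum (adjusted p = 3.25e-05). Its dimmer probe set gave 0.71 in the mutant (adjusted p = 0.146) and rose in ileum by 1.44 (adjusted p = 0.00213). A4gnt, which caps gland mucins with GlcNAc, rose in ileum by 1.34 (adjusted p = 0.00544), and by 0.66 with a pseudocount of 64.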

How the data were processed

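Total RNA of 9 mice was hybridized to 9 arrays. The authors deposited linear intensity values, 1 for each probe set on each array, which came from GCOS, the array maker's scanner software, per the submitters' processing notes. Its version and its scaling of the arrays are not given in the sources. From it, log2(intensity + 16) was computed without the 64 array controls and quantile-normalized, which hides any shift shared by all transcripts, and the pseudocount understates differences of dim probe sets. Probe sets above the 40th percentile of all values (4.95) on 3 or more of 9 arrays were tested, which kept 29307.

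Differences were fitted in limma 3.58.1 (R 4.3.3) with lmFit over all 9 arrays and eBayes with an intensity trend. Tests were two-sided, p-values were adjusted by Benjamini-Hochberg over all tested probe sets, and calls were made at 0.05; every adjusted p comes from this model. Exact permutation of 3 against 3 arrays, whose smallest p is 0.10, was not used. The number of arrays limits the precision.

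Gene names come from the array's annotation table (34945 probe sets with 1 gene, 932 with several, 9160 with none), and all 85 member genes matched RefSeq (GRCm38.p6) by Entrez identifier. A gene is represented by its tested probe set of highest mean, and for the genes described by value the text says where other probe sets were not called alike. The members and lists were chosen with earlier results of these data known. Named genes are, in each comparison, up to 12 members with the largest called rise and up to 12 with the largest called fall among those whose groups do not overlap, a list of members named whatever their result, and the 2 genes of largest called change per pathway list; St3gal2, B4galt4, Nans, Gfpt1, C1galt1, Muc2, Agr2, A4gnt and Gata4 were added as examples, some after their values were seen. A set of 20 alternative settings and a choice of probe set by smallest p were run. Replicate numbers did not pair the mice.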

Additional observations from a re-analysis of the deposited data

How the results depend on the processing

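Limits of the settings: 9 arrays, brightness tied to gut segment, and dim enzymes near the floor. The counts of member genes given above were 2 higher and 0 lower in mutant against control jejunum, 14 and 8 in ileum against control jejunum, and 3 and 4 in mutant jejunum against ileum. Array weights gave 5 and 2 for the first pair, beside 3.83% and 4.01% of all genes, and 5 and 10 for the last, beside 3.83% and 3.67%. No filter, no intensity trend and no scaling each left 1 higher in the mutant. The probe set of smallest p gave 1 lower there. Without scaling between arrays, ileum had 6 higher and 26 lower, beside 619 and 10013 of 29621 probe sets. The mutant then had 23 higher and 1 lower than ileum, beside 8349 and 148 of the probe sets. Medians gave 2 lower and the 2 groups alone 1 lower in that last comparison. Settings not named here moved no count by over 1.5 times. Leaving out 1 array gave ranges of 1 to 2 and 0 to 0, of 12 to 14 and 5 to 8, and of 1 to 4 and 0 to 4, in the same order. The 5 lower in ileum came without control ileum 2 or control jejunum 2, and the 0 lower in mutant against ileum without mutant jejunum 1.

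With no scaling, the median difference of all probe sets was 0.41 in mutant against ileum and -0.40 in ileum against control jejunum. A shift of that size can turn the sign of small differences. Such changes were not counted for all probe sets. Of 68 members, 28 changed sign in mutant against ileum and 14 in ileum against control jejunum. Among the named genes, those that changed sign and were called in either fit were Mgat4b 0.15, Fut8 0.54, B4galnt1 0.57 and Mgat5 0.51 in the former. In the latter it was C1galt1c1 -0.11, of the core 1 list. Members that are not named were not looked at singly. In ileum against control jejunum, the calls of B3gnt5, B3gnt6, Galnt3, Galnt4, Galnt7, Gcnt3, Mgat4b and St3gal2 were lost with no scaling.

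With the replicate number as a block, the counts were 2 and 0, 13 and 8, and 3 and 5 in the same order. Same-numbered mice had correlations of -0.07 to 0.17 in their deviations from the group means, over 0.1 in 2 of 9 pairs, so the numbers were not taken as a pairing.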
